A study of Mus musculus with 3 samples.

Results

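Interneuron spots are the spots of 2 mouse embryo sections that held the largest share of transcripts of Lhx1, Lhx5, Otp and Pax2, which encode transcription factors of spinal interneurons. Spots with at least 1000 UMIs (barcode tags that count captured RNA molecules once each) were ranked by the summed UMIs of these 4 genes divided by all UMIs of the spot. The members, chosen by these UMIs alone, are the top 5% of each section, which gave 50 of 1014 spots at embryonic day E12.5 and 78 of 1561 spots at E11.5 (2 shallower spots were left out), or 128 of the 3942 spots of the whole series. The study cut frozen axial skeleton of mouse embryos into 10 µm sections for Visium, a slide that captures polyadenylated RNA on an array of barcoded spots, each 55 µm across with 100 µm between centres. Only 1 section stands for each stage, both labelled as bone and axial skeleton, and the labels give no strain, sex, number of embryos or axial level. The stage of each section was read from its sample title, whose remaining parts are unexplained, because the stage label holds 1 range for all samples. No p-value is therefore given, and intervals cover counting error only, of UMIs or, for shares, of spots as if drawn independently. A difference between the 2 stages cannot be told apart from one between 2 embryos, levels of the trunk or libraries. A spot can hold several cells of different kinds, and fewer cells of a kind and less RNA per cell cannot be told apart.

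Interneurons of the spinal cord relay and balance signals between sensory neurons, motor neurons and the brain. They are born in stacked progenitor domains of the neural tube, which give the dorsal classes dI1 to dI6 and the ventral classes V0 to V3, and each class is known by its own transcription factors. Inhibitory classes make GABA or glycine and excitatory ones glutamate, and many send axons across the midline with the help of the receptor Robo3.

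The choice rested on few molecules. At E12.5 the interneuron spots held 71 UMIs of Lhx1, 167 of Lhx5, 217 of Otp and 92 of Pax2, and at E11.5 they held 66, 166, 491 and 45 UMIs of the same genes. Otp, a homeodomain factor also known from hypothalamic neurons, thus supplied most of the E11.5 score, and the interneuron spots held 71.9% of all Otp UMIs of that section. All 4 genes were present together in 18 of 50 spots at E12.5 and in 6 of 78 at E11.5, while 4 and 5 spots carried only 1 of them. The last spot inside the E12.5 limit scored 2.93 per 10000 UMIs (9 of 30692) and the first outside scored 2.82 (10 of 35405). At E11.5 the last spot inside scored 2.17 (2 of 9218) and the first outside 2.16 (5 of 23144), so the limit there cuts through spots that the score hardly separates. These values describe the choice and are not results.

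The 2 sections held 25490744 UMIs at E12.5 and 44359910 at E11.5. The median interneuron spot held 27232.5 UMIs at E12.5, against 24201.5 in the other spots of the section. At E11.5 it held 18800.5 UMIs, against 27297 in the other spots, so that the E11.5 interneuron spots were the shallower ones. The 2 sections shared 434 spot barcodes, as Visium slides carry 1 common set, and no barcode was shared by the interneuron spots of both. An E13.5 section of the series held 4 UMIs of the scoring genes in all and was not used in the comparisons.

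The label was checked with genes that the score did not use. The summed level of 20 pan-neuronal genes lay above the section median in 50 of 50 interneuron spots at E12.5 and in 78 of 78 at E11.5. Its median was 111.9 UMIs per 10000 in E12.5 interneuron spots, against 7.79 in other spots, and 110.4 in E11.5 interneuron spots, against 9.32 in other spots. Of these 20 genes, 17 were at least 2-fold higher in interneuron spots in both sections, where 7.48% of all 14590 genes with at least 20 UMIs in each section were higher and 14.4% were lower. Dcx, a microtubule protein of migrating young neurons, had 556.4 CPM (UMIs per 1000000 UMIs of the group) in E12.5 interneuron spots, against 99.9 CPM in other spots. Pax2, Lhx1 and Pax8 also act in the kidney. Of 12 tested nephric and intermediate mesoderm genes 7 were at least 2-fold lower in both sections, among them Osr1 and Wt1. Pax8 and Sall1 were higher. The summed nephric list had 189.3 CPM against 169.4 CPM in other spots at E12.5, and 119.3 CPM against 178.6 CPM at E11.5. Pax8 alone had 104.5 CPM and 46.7 CPM in interneuron spots. This list lay above the section median in 34 of 50 interneuron spots at E12.5 and in 27 of 78 at E11.5. Of 12 brain region genes, 9 had 0 UMIs in E12.5 and 8 had 0 UMIs in E11.5 interneuron spots, among them Otx2 and Six3, which pattern the fore- and midbrain. The summed list was nonetheless higher in interneuron spots, with 18.1 CPM against 6.63 CPM at E12.5 and 29.25 CPM against 21.75 CPM at E11.5, and 16 of 50 and 34 of 78 interneuron spots held a UMI of it. Hoxb1, a hindbrain gene also active in the early caudal neural tube, made up 13 of 22 and 33 of 52 of these UMIs and was 1 of 3 genes tested, the only one higher in both sections. In the other spots, Otx2 had 0 UMIs at E12.5 and 161 UMIs at E11.5, and Six3 had 1 UMI and 51 UMIs, so Otx2 and Six3 could set spots apart at E11.5 only.

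**Figure D1:**
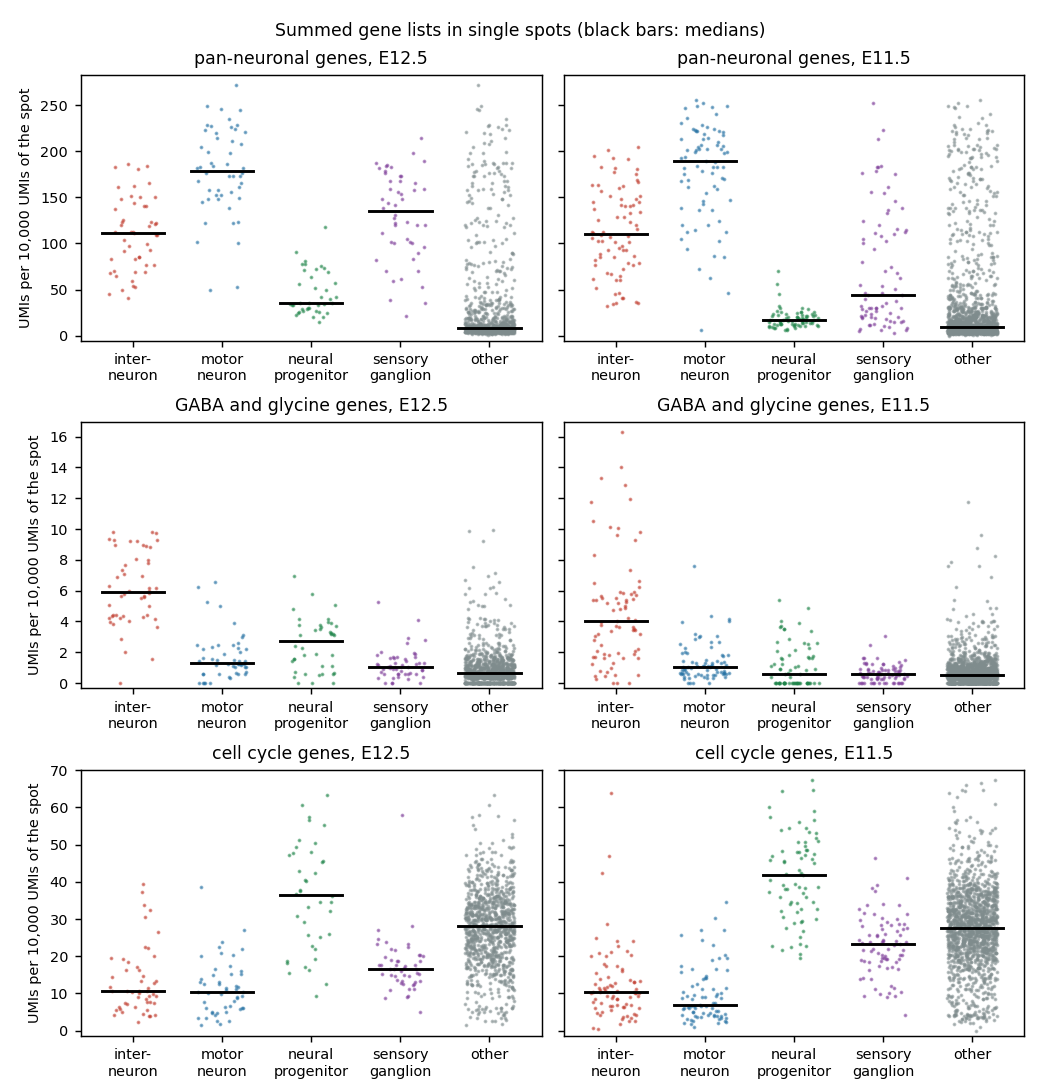
Summed UMIs of 3 gene lists per 10000 UMIs of the spot (vertical axes) in interneuron spots, 3 other groups of neural spots and other spots (left to right), with E12.5 in the left column and E11.5 in the right; each point is 1 spot and black bars are medians. The median of GABA and glycine genes is 5.88 in E12.5 interneuron spots against 0.642 in other spots, and 4.00 in E11.5 interneuron spots against 0.524 in other spots, and single spots overlap in every panel.

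Against all other spots, interneuron spots carried the genes of inhibitory neurons, of axons that cross the midline and of the trunk Hox code, and little of muscle, cartilage and connective tissue. UMIs were summed over the spots of a group, scaled to CPM and compared as a log2 ratio with 0.5 UMI added, and a gene counted when its ratio passed 2-fold the same way in both sections. Of 13068 genes with at least 50 UMIs in each section, 928 were higher (7.1%) and 1816 were lower (13.9%). The median log2 ratio over 14590 genes with at least 20 UMIs was −0.03 at E12.5 and −0.07 at E11.5. Of these 14590 genes, 7.48% were higher and 14.4% lower in both sections, the background for list counts against other spots. Past 2-fold in opposite directions in the 2 sections were 105 genes.

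Gad2, which encodes a GABA-making enzyme, ranked first by the smaller of its 2 ratios. It had 169.6 CPM (206 UMIs) in E12.5 interneuron spots, against 9.10 CPM (221 UMIs) in the 964 other spots, an 18.6-fold ratio. At E11.5 it had 92.3 CPM in interneuron spots, against 5.97 CPM in other spots, a 15.5-fold ratio. Slc32a1, the transporter that loads GABA and glycine into vesicles, had 125.1 CPM against 8.20 CPM at E12.5 and 72.6 CPM against 6.25 CPM at E11.5, interneuron spots before other spots. In single spots the summed GABA and glycine genes ran from 0 to 9.84 per 10000 UMIs at E12.5, with 1 of 50 interneuron spots at 0, and from 0 to 16.3 at E11.5, with 3 of 78 at 0. Of 7 tested GABA and glycine genes, 6 passed 2-fold higher in both sections, where 7.48% of all genes with at least 20 UMIs did, with median log2 ratios of 3.58 at E12.5 and 3.54 at E11.5. Gad1, the second GABA-making enzyme, and Slc6a5, the glycine transporter of glycinergic neurons, had log2 ratios of 3.58 and 3.95 at E12.5 and of 3.56 and 3.95 at E11.5. The exception was Slc6a9, a glycine transporter known from glia, with 9 UMIs in E12.5 interneuron spots and 3 UMIs in E11.5 interneuron spots and ratios below 0.

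Glutamate was represented too. Slc17a6, the vesicular glutamate transporter of spinal excitatory neurons, had 71.6 CPM in E12.5 interneuron spots, against 11.2 CPM in other spots, and 52.3 CPM in E11.5 interneuron spots, against 10.1 CPM in other spots. Its relatives Slc17a7 and Slc17a8 had at most 1 UMI in interneuron spots. Of 6 tested glutamate genes 3 were higher in both sections, where 7.48% of all genes with at least 20 UMIs were. Of 8 tested GABA and glycine receptor genes 3 were higher, among them Glra2, a glycine receptor subunit. The median log2 ratios of the receptor list were 1.03 at E12.5 and 0.07 at E11.5. Chat, which makes acetylcholine in motor neurons, had 0 UMIs in interneuron spots of both sections and 1 UMI in the other spots of each, so these counts do not separate the groups.

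A UMI of at least 1 of 4 inhibitory genes was found in most interneuron spots. With every spot thinned to 10000 UMIs, which left 43 spots at E12.5 and 68 at E11.5, a UMI of Gad1, Gad2, Slc32a1 or Slc6a5 was found in 97.7% of E12.5 interneuron spots (exact 95% interval 87.7 to 99.9%) and in 82.4% of E11.5 interneuron spots (71.2 to 90.5%). These intervals treat spots as independent draws, which chosen spots of 1 section are not, so they do not measure a spread between embryos. In spots below the section median for pan-neuronal genes, which should lack these genes, the shares were 2.42% at E12.5 and 3.76% at E11.5. Median depths before thinning were 27664 and 23987 UMIs at E12.5 and 21670 and 27187 UMIs at E11.5, interneuron spots before low pan-neuronal spots. Slc17a6 was found in 48.8% of E12.5 and 38.2% of E11.5 interneuron spots, against 2.02% and 0.778% of the low pan-neuronal spots. The single inhibitory genes lay on both sides of Slc17a6, from Slc6a5 at 39.5% of E12.5 and 32.4% of E11.5 interneuron spots to Gad2 at 81.4% and 60.3%, with Gad1 at 51.2% and 41.2%. Thinned to 5000 UMIs, the Slc17a6 share was 15.6% at E12.5 and 19.5% at E11.5. Both kinds together were found in 48.8% of E12.5 interneuron spots and 29.4% of E11.5 interneuron spots, and Slc17a6 without an inhibitory gene in 0 of 43 spots at E12.5, which allows up to 6.98% by the floor of 3 spots and up to 8.22% by the exact interval, and in 8.82% at E11.5. As a spot covers several cells, both kinds in 1 spot do not place them in 1 cell.

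**Figure D2:**
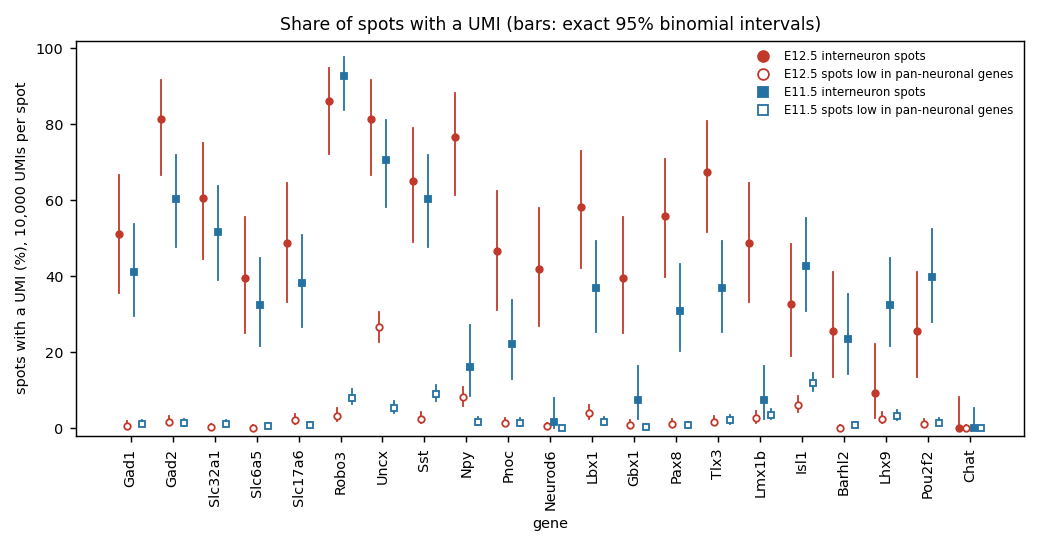
Share of spots with at least 1 UMI of each gene (vertical axis, percent) after thinning every spot to 10000 UMIs, with interneuron spots as filled and spots below the section median for pan-neuronal genes as open symbols, E12.5 in red and E11.5 in blue. Bars are exact 95% binomial intervals that treat spots as independent draws. Gad2 stands at 81.4% of E12.5 and 60.3% of E11.5 interneuron spots and Chat at 0 in both, while Npy stands at 76.7% at E12.5 and 16.2% at E11.5.

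The start sites of Gad2, Slc32a1 and Robo3, ranked 1, 4 and 5 by the smaller of their 2 ratios, are shown. Each window holds 250 bases before and 50 after the start, from RefSeq on GRCm38.p6, on the strand of its gene. They are given because the text turns on these 3 genes. Robo3 was also taken because it holds a match to a motif that LIM homeodomain factors such as Lhx1 are known to bind. That match is therefore no finding, and binding was not tested. The motifs searched were TAATTA and the E-box CAGCTG, both of which read the same on the other strand and do not overlap here, and matches are in capitals. Gad2 lies at chr2:22622077-22622376 on the plus strand, Slc32a1 at chr2:158610508-158610807 on the plus strand and Robo3 at chr9:37433126-37433425 on the minus strand.
Gad2: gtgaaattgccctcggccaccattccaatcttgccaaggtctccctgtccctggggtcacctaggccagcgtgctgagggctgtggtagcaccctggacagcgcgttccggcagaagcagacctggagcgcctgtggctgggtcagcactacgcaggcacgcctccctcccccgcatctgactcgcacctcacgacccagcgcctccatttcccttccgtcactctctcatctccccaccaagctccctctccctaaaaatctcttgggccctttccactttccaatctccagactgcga
Slc32a1: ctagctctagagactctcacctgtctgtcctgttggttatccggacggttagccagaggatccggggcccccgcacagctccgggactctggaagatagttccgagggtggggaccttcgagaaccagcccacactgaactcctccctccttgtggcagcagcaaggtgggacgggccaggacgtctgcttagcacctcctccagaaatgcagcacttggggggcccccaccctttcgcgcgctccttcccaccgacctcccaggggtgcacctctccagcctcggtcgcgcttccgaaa
Robo3: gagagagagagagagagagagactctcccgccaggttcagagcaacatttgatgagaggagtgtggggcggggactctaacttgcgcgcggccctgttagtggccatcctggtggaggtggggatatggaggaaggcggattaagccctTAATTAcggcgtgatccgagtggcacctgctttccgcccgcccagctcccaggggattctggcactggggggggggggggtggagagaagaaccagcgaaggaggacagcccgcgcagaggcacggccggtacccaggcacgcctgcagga
The match in Robo3 begins 101 bases upstream of the start, and Gad2 and Slc32a1 held neither motif in these windows. Of the 15 genes named as most enriched, 9 were in the table with 13 windows, and 2 of them (Mapk10 and Robo3) held TAATTA and 0 held CAGCTG. Over all 32851 windows the shares were 5.29% for TAATTA and 16.3% for CAGCTG, or 6.12% and 18.3% of 27025 genes. A match is a description of the letters and not a site.

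Genes of growing and crossing axons formed the second group. Robo3, the receptor that lets commissural axons approach the midline, had 394.3 CPM in E12.5 interneuron spots, against 26.1 CPM in other spots. At E11.5 it had 845 CPM in interneuron spots, against 80.9 CPM in other spots, ratios of 15.1 and 10.5. Of 24 tested axon guidance and adhesion genes 10 were higher in both sections, where 7.48% of all genes with at least 20 UMIs were, and 1 was lower. Among the 10 were Dcc, the netrin receptor, with log2 ratios of 2.51 at E12.5 and 2.55 at E11.5, and Chl1. Chl1, an adhesion molecule of the L1 family, had 2.91 and 2.94. Unc5c, a receptor for repulsion by netrin, had log2 ratios of −0.95 and −2.26. The remaining genes with the largest ratios included Skor1, a corepressor of dorsal interneurons, with 228.8 CPM against 10.3 CPM at E12.5 and 64.7 CPM against 4.91 CPM at E11.5. They also included Lamp5, a membrane protein known from GABAergic neurons of the brain, Igfbpl1, a gene of newborn neurons, Scrt2, a repressor of newborn neurons, the kinase gene Mapk10 and the host genes of the neuronal microRNA miR-124, Mir124a-1hg and Mir124-2hg. For these 6 genes the folds over both sections lay between 7.47 and 13.4.

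Lhx1os was second in that ranking and is not independent of the score. It had 506.2 CPM in E12.5 interneuron spots, against 35.6 CPM in other spots, and 469.2 CPM in E11.5 interneuron spots, against 34.7 CPM in other spots. It starts 126 bases from Lhx1 on the opposite strand, the 2 starts being at 84525660 (Lhx1os, plus strand) and 84525534 (Lhx1, minus strand) on chromosome 11 of GRCm38.p6. The window chr11:84525410-84525709 is printed because it holds both starts, with the 125 bases between them in capitals.
Lhx1os: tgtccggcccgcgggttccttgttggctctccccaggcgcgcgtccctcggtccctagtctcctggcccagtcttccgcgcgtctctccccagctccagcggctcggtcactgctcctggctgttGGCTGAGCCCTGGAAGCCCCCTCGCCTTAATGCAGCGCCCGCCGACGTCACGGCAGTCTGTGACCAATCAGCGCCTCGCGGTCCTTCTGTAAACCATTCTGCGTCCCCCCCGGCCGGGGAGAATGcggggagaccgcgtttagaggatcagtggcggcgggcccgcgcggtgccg

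Set against the other spots, genes of dorsal classes were higher more often than genes of ventral ones, a contrast that was not tested. All 5 genes of dI4 and dI6, the dorsal inhibitory classes, were higher in both sections, with median log2 ratios of 3.31 at E12.5 and 3.22 at E11.5. Lbx1, which sets the identity of late dorsal classes, had 100.4 CPM in E12.5 interneuron spots, against 7.58 CPM in other spots, and 49.5 CPM in E11.5 interneuron spots, against 4.72 CPM in other spots. Gbx1, Prdm13, Bhlhe22 and Dmrt3 were the others. All 4 genes of dI1, the class of spinocerebellar and other commissural relays, were higher as well, Barhl2 with log2 ratios of 3.83 and 2.71 and Lhx9 with 1.67 and 1.86. Of 5 genes of dI3 and dI5, Tlx3, which selects the glutamatergic fate, and Prrxl1, also called Drgx, passed in both sections, while Tlx1, Lmx1b and Phox2a passed at E12.5 only, a difference between sections that was not tested.

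Evx1 and Evx2 of V0, the commissural class next to the middle of the cord, were higher in both sections, with 4 and 6 UMIs at E12.5 and 24 and 21 UMIs at E11.5 in interneuron spots. Of 3 tested genes of V2a, an excitatory class, 2 were higher, among them Sox14 with 4 UMIs at E12.5 and 13 UMIs at E11.5. None of the 3 genes tested for V1 or of the 3 for V2b was higher in both sections. En1, the defining gene of V1, had 7.41 CPM in E12.5 interneuron spots, against 15.7 CPM in other spots, and 24.2 CPM in E11.5 interneuron spots, against 7.61 CPM in other spots. After thinning, En1 was found in 12.1% of the low pan-neuronal spots of E12.5, against 2.33% of interneuron spots, so the other spots are no neural background for it. Against motor neuron spots, 0 of 3 tested V1 genes and 0 of 2 tested V2b genes passed in either direction. Of the V3 list Uncx was higher, with 172 CPM against 40.5 CPM at E12.5 and 185.6 CPM against 29.8 CPM at E11.5, while Sim1 and Nkx2-2, the defining genes of the class, had at most 1 UMI in the interneuron spots of either section. Uncx is also a gene of the forming vertebrae, and it was found in 26.5% of the low pan-neuronal spots of E12.5 after thinning, against 81.4% of interneuron spots.

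**Figure D3:**
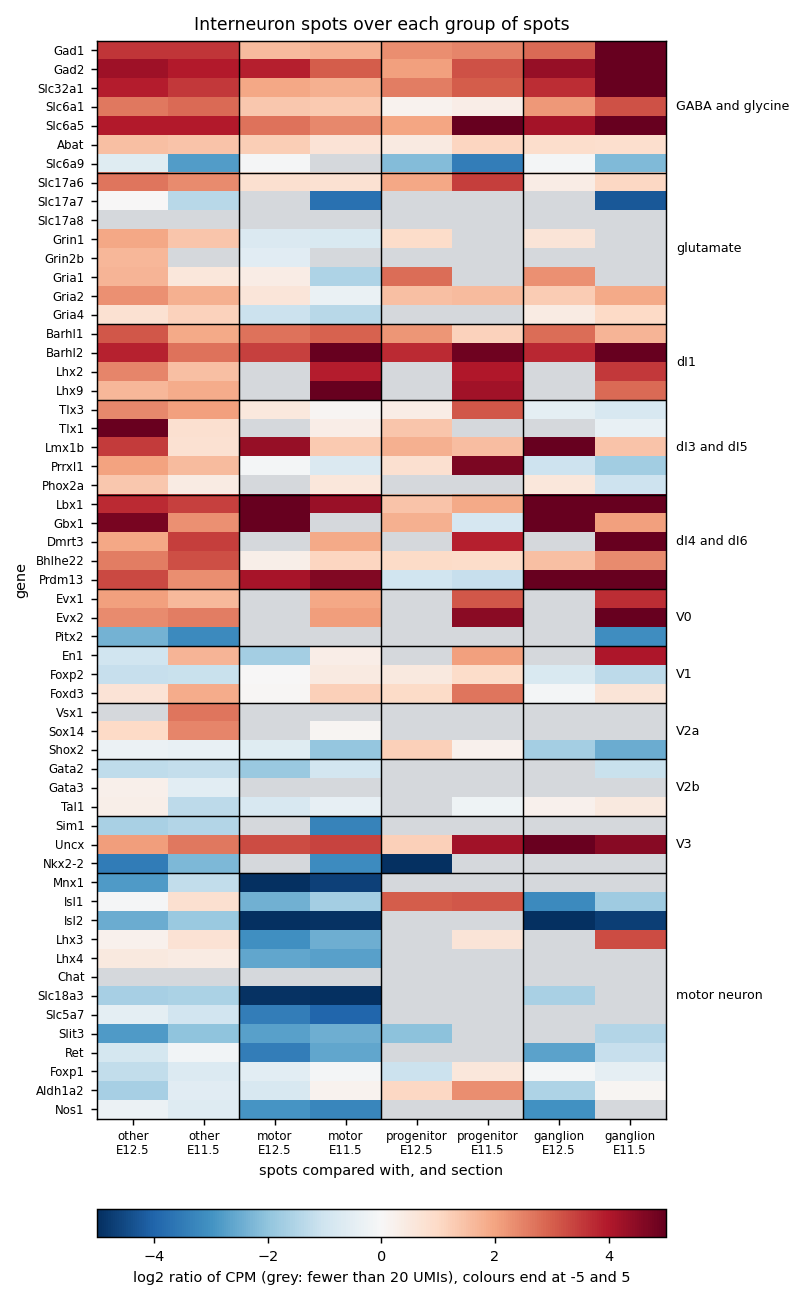
Log2 ratio of CPM in interneuron spots over 4 groups of spots (columns, E12.5 before E11.5 in each pair) for transmitter, class and motor neuron genes (rows). Red is higher in interneuron spots, blue is lower, colours end at −5 and 5, and grey marks fewer than 20 UMIs. Gad2, Lbx1 and Barhl2 are red in all 8 columns, and Isl2 and Slc18a3 are blue wherever they have enough UMIs.

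The position along the trunk was read from the Hox genes, whose paralogue number follows the axis from head to tail. Of 12 tested genes of paralogues 2 to 5, 9 were higher in interneuron spots in both sections, and of 11 of paralogues 6 to 9, 9 were. Hoxb8 had 761.4 CPM in E12.5 interneuron spots, against 65.2 CPM in other spots, and 408.4 CPM in E11.5 interneuron spots, against 46 CPM in other spots. Hoxb9 had ratios of 9.59 and 8.96, and Hoxb6 of 7.48 and 7.67. Of 7 tested genes of paralogues 10 to 13, which mark the lumbar and tail trunk, 0 were higher and 4 were lower in both sections. Their summed level went opposite ways in the 2 sections, interneuron spots before other spots. It was 22.2 CPM against 208.6 CPM at E12.5 and 51.2 CPM against 33.8 CPM at E11.5. A UMI of paralogues 6 to 9 was found in 50 of 50 interneuron spots at E12.5 and in 73 of 78 at E11.5, and 3 of the other 5 held only paralogues 2 to 5. The labels do not say where the sections lay along the body, and the other spots hold other tissues, so tissue and axial level cannot be told apart in these ratios.

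**Figure D4:**
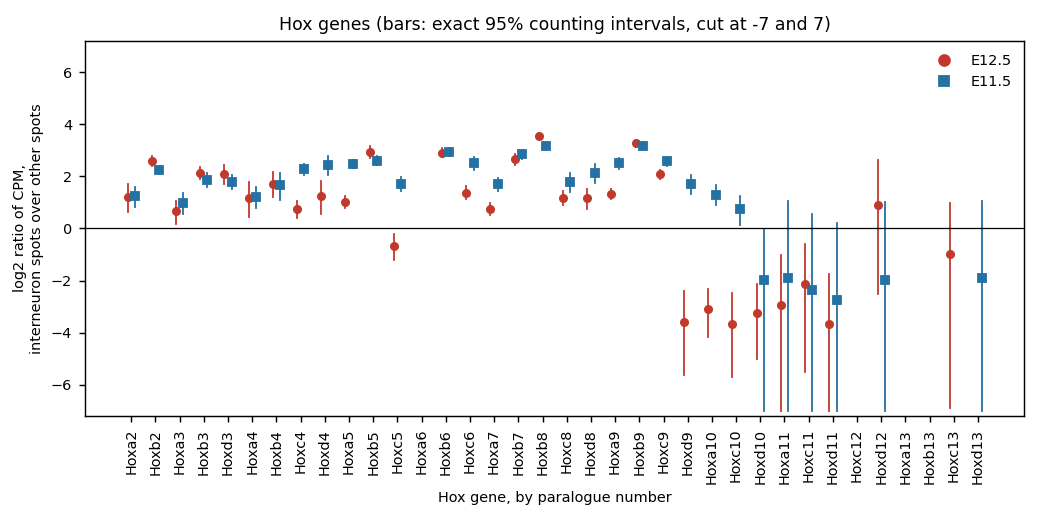
Log2 ratio of CPM in interneuron spots over other spots (vertical axis) for Hox genes ordered by paralogue number, with E12.5 as red circles and E11.5 as blue squares. Bars are exact 95% counting intervals, cut at −7 and 7, and genes with fewer than 20 UMIs are left blank. Hoxb6, Hoxb8 and Hoxb9 sit near 3 in both sections, while Hoxd9, Hoxa10 and Hoxc10 are below −3 at E12.5 and above 0 at E11.5.

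Npy, the peptide of dorsal inhibitory neurons, Sst (somatostatin), Tac1 (substance P) and Pnoc (nociceptin) were higher in both sections, as was Grp, with 5 UMIs at E12.5 and 15 at E11.5, so 5 of 12 tested were higher, while Penk and Cck were lower. Sst had 148.2 CPM in E12.5 interneuron spots, against 23.3 CPM in other spots, and 225.6 CPM in E11.5 interneuron spots, against 57.1 CPM in other spots. Penk, the enkephalin gene, had 4.94 CPM against 35.1 CPM at E12.5 and 2.81 CPM against 36.4 CPM at E11.5. Of 20 synaptic genes 11 were higher in both sections and of 19 ion channel genes 9, the synaptic ones including Rab3a, a vesicle protein, with log2 ratios of 2.28 and 2.19. Over all genes with at least 20 UMIs, 7.48% were higher in both sections.

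Interneuron spots carried genes of newborn neurons beside some of progenitors, with fewer transcripts of dividing cells. Of 16 newborn neuron genes 12 were higher in both sections, where 7.48% of all genes with at least 20 UMIs were. Nhlh2 had 141.6 CPM against 24.9 CPM at E12.5 and 279 CPM against 39.9 CPM at E11.5. Only 3 of the 16 were also higher in both sections against the neural progenitor spots described below. Against the other spots, 6 of 16 neural progenitor genes were higher and Ptn was lower. Dll3, a Notch ligand of cells leaving the cycle, had log2 ratios of 2.50 and 2.25. Of 16 cell cycle genes 9 were lower in both sections, where 14.4% of all genes with at least 20 UMIs were, and 0 were higher. Mki67, the proliferation antigen, had 51.9 CPM in E12.5 interneuron spots, against 186.3 CPM in other spots, and 79.9 CPM in E11.5 interneuron spots, against 263 CPM in other spots. The summed cell cycle list was above the section median in 5 of 50 interneuron spots at E12.5 and in 4 of 78 at E11.5.

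Genes of mesenchyme, cartilage and muscle were low in interneuron spots. All 12 mesenchyme genes, 9 of 10 cartilage genes and 8 of 11 muscle genes were lower in both sections. Actc1, cardiac actin, had 12.4 CPM in E12.5 interneuron spots, against 364.7 CPM in other spots, and 16.3 CPM in E11.5 interneuron spots, against 463.4 CPM in other spots. The other genes with the lowest ratios were Tnnt2, Smpx, Myl1, Ldb3 and Cryab of muscle, Acta2 of smooth muscle, Acan of cartilage, Meox1 of somites, Osr1 of mesoderm, and Tm4sf1, Corin, Aldh1a3, Bnc1 and Bmp2. Among these 15 genes 7 had 0 UMIs in the interneuron spots of each section, though not the same 7, which against a floor of 3 UMIs makes them at least 2.54-fold to 3.92-fold lower at E12.5 and at least 2.50-fold to 8.42-fold lower at E11.5. Lists of tissue near the cord were mixed, with 8 of 12 roof plate and floor plate genes, 6 of 14 sensory ganglion genes, 3 of 8 sympathetic neuron genes and 5 of 8 neural crest and Schwann cell genes lower in both sections. The summed neural crest and Schwann cell list was higher in interneuron spots, with 982.8 CPM against 589.3 CPM at E12.5 and 626.7 CPM against 436.2 CPM at E11.5, mostly from Fabp7, a gene of radial glia too, with 901.3 and 540.6 CPM, while Sox10, which defines the crest lineage, had 9 and 10 UMIs. The summed sensory ganglion list lay above the section median in 38 of 50 interneuron spots at E12.5 and in 51 of 78 at E11.5, and Pou4f1, a POU factor of sensory and dorsal spinal neurons, was higher in both sections with log2 ratios of 2.12 and 1.89. Blood genes, at 6656 CPM in E12.5 and 13020 CPM in E11.5 interneuron spots against 14370 and 56240 CPM in other spots, were present in both groups.

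Nearest to interneuron spots are other neural spots, and 3 groups of them were taken the same way, the top 5% for motor neuron genes (Mnx1, Isl2, Chat, Slc18a3 and Slc5a7), for neural progenitor genes (Sox1, Sox2, Pax6 and Hes5) and for 4 sensory ganglion genes (among them Avil, Tlx2 and P2rx3). Spots that were also interneuron spots were left out, which were 0, 10 and 0 of 50 at E12.5 and 1, 7 and 0 of 78 at E11.5, in that order of groups. The motor neuron and ganglion groups shared 19 spots at E12.5 and 21 at E11.5. The summed pan-neuronal genes had a median of 110.4 UMIs per 10000 in E11.5 interneuron spots, against 44.1 in the E11.5 ganglion group, so that group holds many spots with little neural RNA. Genes that chose a group were not counted in its comparison, and genes needed at least 20 UMIs over both groups in each section.

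Against motor neuron spots, interneuron spots were set apart by GABA and glycine genes, dorsal factors and anterior and middle Hox genes. Of 10436 genes, 181 were higher in both sections (1.73%) and 444 were lower (4.25%). Msx3, a dorsal neural tube factor, had 60 UMIs in E12.5 interneuron spots, against 0 in motor neuron spots, which is at least 27.6-fold higher. At E11.5 it had 51.8 CPM in interneuron spots, against 1.91 CPM in motor neuron spots. Lbx1, Robo3, Pax8, Skor1, Uncx, Igfbpl1 and Wnt7b, a secreted Wnt ligand, followed, with Pax8 at 104.5 CPM against 7.74 CPM at E12.5 and 46.7 CPM against 1.53 CPM at E11.5. GABA and glycine genes were higher in 5 of 6 tested, and Hox genes of paralogues 2 to 5 in 9 of 12. Of pan-neuronal genes 0 of 20 were higher and 3 were lower (Gap43, Nefl and Nefm, of growing and thick axons). Of 19 synaptic genes 0 were higher and 4 were lower, and of 16 ion channel genes 0 were higher and 3 were lower. None of the 16 cell cycle genes passed in either direction, so their low level was shared with motor neuron spots. The genes lower in interneuron spots included Uts2b, a urotensin peptide, with 1.65 CPM against 137.6 CPM at E12.5 and 2.25 CPM against 96.5 CPM at E11.5, and Prph, an intermediate filament of peripheral axons, with 14 UMIs against 593 at E12.5 and 28 UMIs against 666 at E11.5. Ntf3, Hmx1, Rasgef1c, Pirt and Ppp1r1c were lower too, of which Hmx1 and Pirt are genes of sensory ganglia. In this comparison 8 of 10 ganglion genes were lower. Among them were Tlx2 and P2rx3, which helped choose the ganglion group that shares spots with this one.

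Against neural progenitor spots, interneuron spots carried more of the neuronal genes and fewer cell cycle genes. Of 9327 genes, 431 were higher in both sections (4.62%) and 518 were lower (5.55%). With TMM factors, which shift these log2 ratios by 0.09 at E12.5 and 0.21 at E11.5, the counts were 542 higher and 413 lower. Of 20 pan-neuronal genes 17 were higher, and of 16 cell cycle genes 14 were lower. Of 16 newborn neuron genes only 3 were higher and 1 was lower. Their summed medians per 10000 UMIs were 20.65 against 19.65 at E12.5 and 23.12 against 11.57 at E11.5, interneuron before progenitor spots. Of tested Hox genes, 0 of 12 of paralogues 2 to 5 passed in either direction, and 1 of 10 of paralogues 6 to 9 was higher. Summed paralogues 2 to 5 had medians per 10000 UMIs of 10.3 against 9.29 at E12.5 and 15.2 against 14.3 at E11.5, interneuron before progenitor spots. For paralogues 6 to 9 the medians were 27.7 against 15.8 and 20.1 against 13.3. Npy had 849.4 CPM in E12.5 interneuron spots, against 64.5 CPM in progenitor spots, and 32.1 CPM in E11.5 interneuron spots, against 1.06 CPM (1 UMI) in progenitor spots. Mtus2, a microtubule protein, Pax8, Mab21l2, Isl1, a LIM factor of several neuron classes, Pnoc, Rcan2 and Slc32a1 were the other genes with the largest ratios, but the log2 ratio of Isl1 at E12.5 was 3.03 for the top 5% of spots and −1.46 for the top 10%. Those with the lowest were Gdf10, Spon1, Sulf1, Rfx4, Adgrv1, Wnt7a, Celsr1 and Mt3, most of them known from radial glia or the ventricular zone, with Rfx4 at 20.6 CPM against 175.2 CPM at E12.5 and 29.3 CPM against 223.5 CPM at E11.5. Dll3 did not pass 2-fold here, and Pax3 and Olig3, factors of dorsal progenitors, were lower in both sections. Of 19 tested axon guidance and adhesion genes 5 were higher in both sections and 1 was lower. Chl1 was among the 5, while Robo3 and Dcc were not.

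Against sensory ganglion spots, the central markers led. Of 10322 genes, 458 were higher in both sections (4.44%) and 656 were lower (6.36%). Lbx1 had 100.4 CPM in E12.5 interneuron spots, against 0.661 CPM (1 UMI) in ganglion spots, and 49.5 CPM in E11.5 interneuron spots, against 0.426 CPM (1 UMI) in ganglion spots. Robo3 had 394.3 CPM against 6.61 CPM and 845 CPM against 14.9 CPM, ratios of 56.9 at E12.5 and 56 at E11.5. Pax8, Skor1, Uncx, Msx3, Gad2 and Nxph4 followed, and all 4 tested genes of dI4 and dI6 were higher. Against progenitor spots only 1 of 4 tested genes of dI4 and dI6 was higher in both sections, Lbx1. The median log2 ratios of that list over progenitor spots were 1.2 at E12.5 and 0.04 at E11.5. Genes of ganglion neurons were lower, Pirt with 3.29 CPM against 91.15 CPM at E12.5 and 1.69 CPM against 44.68 CPM at E11.5. Hmx1, Cdhr1, Prkg1, Ccer2 and Ppp1r1c were lower too. Isl2 had 3.29 CPM against 161.2 CPM at E12.5 and 6.75 CPM against 180.8 CPM at E11.5. Isl2 helped choose the motor neuron spots, of which 19 at E12.5 and 21 at E11.5 are in this group. Its ratios therefore follow in part from that choice. Slc17a6 passed 2-fold higher in both sections against progenitor spots, with log2 ratios of 1.93 and 3.46, and had ratios of 0.82 and 0.78 against motor neuron spots and of 0.39 and 1.05 against ganglion spots.

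Between the stages, E12.5 interneuron spots held more transcripts of Npy and of genes of dI3, dI4 and dI5 and fewer of Lhx2, Lhx9 and Crabp1. Of 7581 genes with at least 50 UMIs over both groups, 342 were at least 2-fold higher at E12.5 (4.51%) and 71 were lower (0.937%), with a median log2 ratio of 0.18. TMM factors lower each of these log2 ratios by 0.26, and the counts then were 147 higher and 167 lower, while the mean of the CPM of single spots gave 321 higher and 129 lower. The 20 genes taken by the naming rule stayed past 2-fold with TMM factors. In the other spots of the same sections 119 of these 7581 genes were higher at E12.5 and 34 lower, and 80 of the 342 and 40 of the 71 differed by 2-fold or more beyond the ratio in the other spots.

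Among genes with at least 100 UMIs that the naming rule took, Npy had the largest ratio, with 849.4 CPM (1032 UMIs) in E12.5 and 32.1 CPM (57 UMIs) in E11.5 interneuron spots, which is 26.3-fold. In the other spots it had 43.7 CPM at E12.5 and 5.64 CPM at E11.5. Hopx, Sall3, Ntn1 (netrin), Gbx1, Lmx1b, Bcl11b, Pknox2, Lars2 and Runx1t1 followed, most of them transcriptional regulators, with folds between 4.42 for Runx1t1 and 11.8 for Hopx. Gbx1 of dI4 had 79.8 CPM at E12.5 and 9.56 CPM at E11.5, and Lmx1b of dI5 had 67.5 CPM and 10.7 CPM. Of the lists, Neurod6, a factor of maturing neurons, had 76 UMIs in E12.5 and 1 UMI in E11.5 interneuron spots, and its relative Neurod2 had 51 and 5 UMIs. Tac1, Pnoc, Tlx3, Prrxl1, Lbx1 and Pax8 were higher too, Tac1 with 41.2 CPM and 3.38 CPM. With TMM factors the log2 ratios of Lbx1 (1.02) and Pax8 (1.16) became 0.76 and 0.90 and no longer passed 2-fold. Tlx3, Prrxl1, Lbx1, Pax8 and Pnoc were also higher at E12.5 in other spots, to within 2-fold of the same ratio.

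Lower at E12.5 was Crabp1, a retinoic acid binding protein, with 1468 CPM at E12.5 and 4919 CPM at E11.5. Neurog1, a proneural factor, Ccnd2, a cyclin of neural progenitors, Cartpt, the CART peptide, Metrn, Arl4d, Smug1, Hoxc5 and Tppp3 were also among the 10 that the naming rule took, with Ccnd2 at 44.5 CPM and 239.6 CPM. Lhx2 and Lhx9 of dI1 had 3.29 CPM and 9.88 CPM at E12.5 and 77.1 CPM and 68.6 CPM at E11.5, and in the other spots too they were lower at E12.5, Lhx2 with 0.659 CPM against 27.6 CPM. Robo3 had 394.3 CPM and 845 CPM, while Neurod1, Neurod4 and Pou3f1 of young neurons and the filaments Nefl, Nefm and Nes were lower at E12.5 as well. Pou2f2 was lower too, as the only 1 of 9 tested genes in a list of later-born neurons, of which 4 were higher. Of the filaments, Nefl and Nefm had log2 ratios of −1.09 and −1.04, which TMM factors move further from 0. None of the 16 tested cell cycle genes passed 2-fold between the stages. Of 7 tested blood genes 3 were lower at E12.5, Hbb-y among them with 2929 CPM at E12.5 and 6523 CPM at E11.5, while Hba-a1, Hba-a2 and Hbb-bs had log2 ratios of 0.08, 0.29 and 0.64, and leaving globins out of the totals gave 332 higher and 74 lower genes.

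**Figure D5:**
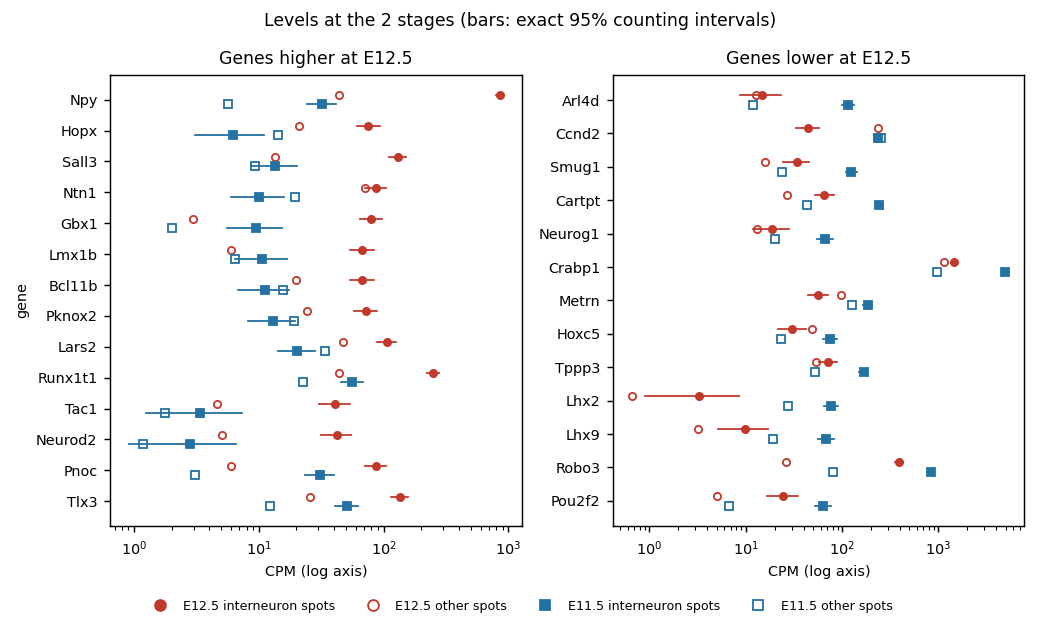
Level in CPM (log axis) at E12.5 (red circles) and E11.5 (blue squares) for genes taken by the naming rule and 4 list genes in each direction. Filled symbols are interneuron spots with exact 95% counting intervals and open symbols are other spots of the same section. Npy stands at 849.4 CPM in E12.5 and 32.1 CPM in E11.5 interneuron spots, and the open symbols of Lhx2 and Lhx9 differ between the stages too.

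Within the interneuron spots the score was led by different genes, and they were split by Otp, a division chosen after the values were seen. The split uses the same scoring UMIs that chose the spots, and in some spots it rests on 1 Otp UMI. Its differences are therefore a description only. In 17 of 50 spots at E12.5 and in 52 of 78 at E11.5, Otp gave over 50% of the scoring UMIs. Of 7665 genes with at least 20 UMIs, 15 were at least 2-fold higher in both sections in Otp-led spots than in the other interneuron spots (0.196%) and 9 were lower (0.117%). Barhl2 had 27 UMIs in E12.5 Otp-led spots, against 22 in the other interneuron spots, and 82 UMIs in E11.5 Otp-led spots, against 0 in the other interneuron spots, which is at least 12.6-fold higher at E11.5. Isl1 had 77.8 CPM against 28.9 CPM at E12.5 and 93.8 CPM against 16 CPM at E11.5, and Barhl1, Pou4f2, a POU factor of relay neurons, and Kcnip1, a potassium channel partner, were also higher. Npy was lower in Otp-led spots, with 316.5 CPM against 1097 CPM at E12.5 and 23.9 CPM against 49.8 CPM at E11.5, as was Ebf2, a factor of young neurons. Both dI1 genes tested were higher in Otp-led spots, while of 3 tested dI4 and dI6 genes and 6 tested GABA and glycine genes 0 passed in either direction.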

How the data were processed

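Visium libraries of 3 mouse sections were deposited, and those of E12.5 and E11.5 were used. The values are counts of UMIs per gene and spot, made by the authors with Space Ranger 1.2.0 per the file headers, with STAR and the mm10 build per the submitters' processing notes. For the STAR version, the gene annotation and strand use, no value was found in the labels or headers. Spot positions and images were not used. The members and gene lists were chosen with earlier results of these data known. Of 32285 genes, 32158 IDs were in the name table, 31436 with the same symbol, and 78 entries with a repeated symbol were not named. Prrxl1 is also called Drgx.

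UMIs were summed over the spots of a group and given as CPM, with 0.5 UMI added for log2 ratios. A gene needed 50 UMIs over both groups (other spots, stages) or 20 (lists, neural groups) and a 2-fold ratio. Named genes were the 15 per direction with the largest smaller-of-2-sections ratio and 100 UMIs in the higher group, 8 per direction with 50 UMIs against each neural group, and 10 per direction between stages with 100 UMIs and a 2-fold difference beyond the other spots. Globin, mitochondrial, ribosomal and sex-linked genes were not named by this rule, and list members could also be named. Some genes that the rule or the lists hold are not reported here. Intervals are exact at 95% (Poisson, conditional binomial, Clopper-Pearson), and intervals and the floor of 3 UMIs cover counting error only. The Clopper-Pearson intervals of shares treat spots as independent draws. The steps were tested on simulated data. Tools were Python 3.11.15, numpy 2.4.6, scipy 1.17.1, pandas 2.3.3, matplotlib 3.10.9, R 4.3.3 and edgeR 4.0.16, used for TMM factors only. Alternatives changed the depth minimum, the share of spots, the scoring genes, the scaling, the UMI minimum, the pseudocount and the thinning.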

Additional observations from a re-analysis of the deposited data

Results flagged for a closer look

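Some genes passed 2-fold in opposite directions in the 2 sections when interneuron spots were set against other spots. These differences were not tested, and stage, embryo and axial level cannot be told apart. The Hox genes Hoxd9 and Hoxa10 had log2 ratios of −3.59 and −3.09 at E12.5 and of 1.71 and 1.30 at E11.5. En1, the V1 factor, had −1.01 at E12.5 and 1.68 at E11.5. The reverse order held for Apoa1, an apolipoprotein, with 1.25 at E12.5 and −2.12 at E11.5, for Syn2, a synapsin, with 1.16 and −1.16, and for Gabra5, a GABA receptor subunit, with 1.03 and −1.20.

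The E13.5 section, which enters no comparison, held 4 UMIs of Lhx1, Lhx5, Otp and Pax2 together and 18 UMIs of Gad1, Gad2, Slc32a1 and Slc6a5 together, and 99 UMIs of Lbx1. These counts are given because they lie outside the comparisons, and no background level was measured for them.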

How the results depend on the processing

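No paired analysis was possible because each stage has 1 section and the labels pair none. Of 256 values of the main results under alternatives, 208 stayed within the limits set for a like value, 48 moved and 0 reversed; of 3787 others, 307 moved and 18 reversed. Counts follow the UMI minimum and pseudocount by construction. Higher against other spots were 3243 genes with no minimum and 1426 with 5 UMIs added, when 732 were lower. With a minimum of 200 UMIs, against none, higher and lower were 53 and 49, against 537 and 1253, over motor neuron spots, 80 and 65, against 915 and 1123, over progenitor spots, and 98 and 68, against 944 and 1614, over ganglion spots. Adding 5 UMIs gave 288 lower over motor neuron and 273 higher over progenitor spots. Between stages, higher and lower were 752 and 161 (minimum 20), 45 and 19 (minimum 200), 2816 and 1746 (none) and 147 and 167 (TMM), with 219 higher for the top 3%, 129 lower for mean CPM and 47 lower with 5 UMIs added. The pan-neuronal median at E12.5 became 2.19 (5000 UMIs per spot), 1.97 (top 3%), 2.41 (top 10%), 2.19 (without Lhx5), 1.85 (without Otp) and 2.29 (mean CPM), and at E11.5 2.17 (mean CPM). The GABA and glycine median at E12.5 became 3.14 (top 3%), 4.26 (top 10%) and 3.11 (minimum 200), and at E11.5 3.87 (without Otp). GABA and glycine shares at E12.5 were 86.7% at 5000 UMIs and 100% for the top 3%, and at E11.5 91.0% unthinned, 68.8% at 5000 UMIs, 68.3% for the top 3% and 62.3% for the top 10%. Slc17a6 shares were 15.6% at E12.5 and 19.5% at E11.5 at 5000 UMIs and 23.9% at E11.5 for the top 10%. Reversed medians at E12.5 were V2a at −1.38 (top 3%) and −0.96 (without Otp), V3 at 0.09 (top 10%) and 0.31 (5 UMIs added), and motor neuron at 0.17 (top 10%) and 0.00 (without Lhx5). At E11.5 they were V3 at 1.10 (top 10%), 0.93 (without Otp) and 0.48 (5 UMIs added), V2b at 0.14 (without Otp) and otic and optic at 0.01 (minimum 200) and 0.57 (none). With 5 UMIs added, roof and floor plate (0.13) and sympathetic (0.47) reversed at E12.5, and sensory ganglion (0.05), brain region (0.95) and Hox 10 to 13 (1.08) at E11.5. Isl1 over progenitor spots was −1.46 at E12.5 for the top 10%. Beyond that construction, the cause was not tested. Spots under 10000 UMIs (7 at E12.5, 10 at E11.5) enter no share.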
